A study of Mus musculus with 12 samples.

Results

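The genes described here are 55 mouse genes of mitosis and the kinetochore, listed by name, of which 54 had a measured row among the 19937 genes tested. The missing one was Ccnb1, and Sgol1 was found under its current symbol Sgo1. Each gene was read from the row with its symbol that had the highest mean over 12 arrays, and it was followed through 4 stages of granulocyte formation and across the individual myelocyte arrays.

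The data were messenger RNA profiles on Affymetrix Mouse Gene 1.0 ST arrays, made by the study to set messages against microRNAs during granulopoiesis. All cells came from bone marrow (femur, tibia and spine) of untreated C57BL/6 mice and were sorted by flow cytometry without culture, with 3 arrays for each of 4 groups. The LSK group held stem and progenitor cells, defined as negative for the lineage antigens B220, Ter119, CD3, Gr-1 and CD11b and positive for Sca1 and cKit. Promyelocytes, myelocytes and granulocytes, successive stages of the neutrophil lineage, were separated with antibodies that included those to B220, CD3, Sca1, Gr-1, cKit, CD34 and CD16/32. Each array took 300 ng of total RNA. The replicates of a group are labelled as biological without naming separate animals, so the p-values cover only the variation among these arrays, part of which may be technical.

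Mitosis depends on a shared set of proteins that is made in dividing cells and is largely absent from resting ones. Cyclin-dependent kinase 1 with cyclins A and B starts the process, condensins compact the chromosomes, the kinetochore couples each centromere to spindle microtubules, the spindle checkpoint holds anaphase back until all are attached, and cytokinesis parts the daughter cells. In the neutrophil lineage, promyelocytes and myelocytes are known to divide, whereas later stages are post-mitotic. Many of these genes share 2 promoter elements, the CCAAT box and the cell cycle genes homology region (CHR), which is a binding site for DREAM and B-MYB complexes.

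Promoter sequence is shown as a description of the members, and its part in their changes was not tested. RefSeq windows on GRCm38.p6 that ran from 250 bases before to 50 bases after a transcription start were matched for 45 of the 55 names, giving 50 windows. The CHR was searched as TTTGAA or TTCGAA on both strands, the second of which reads the same on either strand, and the CCAAT box as CCAAT on both strands. A CCAAT match can share an end base with a CHR match. The CHR letters stood in 34 of 50 member windows (68.0%) against 19.2% of all 32851 windows of that length, and CCAAT stood in 78.0% against 37.4%. Windows with both made up 62.0% of the members' and 7.52% of all. A match describes the letters only. In the 30-base stretches below, written 5′ to 3′ on the strand of the gene, capitals mark the CHR match and the position of its first base is counted from the transcription start. All lie upstream of a start, in genes whose differences between myelocytes and granulocytes ran from -3.41 (Top2a) to -1.09 (Ube2c) on the log2 scale. They do not show the usual position of the match. Other members had the CHR letters only after the start, among them Plk1 (position 30), Aurka (32), Bub1 (14) and Cenpa (16).
Mki67, position -98, chr7:135716460-135716489, minus strand: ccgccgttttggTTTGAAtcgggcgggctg
Top2a, position -120, chr11:99024292-99024321, minus strand: ggcggtcttttgTTCGAAtaaaagacgatc
Cdk1, position -15, chr10:69352910-69352939, minus strand: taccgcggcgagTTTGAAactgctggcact
Cdc20, position -18, chr4:118437344-118437373, minus strand: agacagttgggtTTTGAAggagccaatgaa
Espl1, position -27, chr15:102296254-102296283, plus strand: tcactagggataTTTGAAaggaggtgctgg
Ncapg, position -30, chr5:45669883-45669912, plus strand: ccgcgatagttgTTTGAAaactctggcgct
Ncapd2, position -123, chr6:125191692-125191721, minus strand: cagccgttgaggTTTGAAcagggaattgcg
Cenpn, position -9, chr8:116921719-116921748, plus strand, match on the other strand: gccattggcggcTTCAAAagcacctcggcg
Ube2c, position -29, chr2:164769888-164769917, plus strand, match on the other strand: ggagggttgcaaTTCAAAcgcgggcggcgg
The stretches differ around the motif, and those of Cenpn and Ube2c carry it in the reverse orientation.

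The deposited values are log2 RMA expression values, so a difference of 1 is a 2-fold difference, and levels are compared only within a gene. A gene was called when its adjusted p was under 0.05 in limma's moderated test and its difference reached 2-fold. Values of 4.54 or less are referred to as dim, since 95% of the group means of olfactory and vomeronasal receptor genes, which marrow cells do not use, lay at or under that level. Array medians ran from 4.96 to 5.12. Markers of each labelled stage were highest where they belonged for LSK (Kit, Flt3, Cd34, Hlf and Meis1), promyelocytes (Mpo, Elane, Prtn3, Ctsg and Ms4a3) and granulocytes (Csf3r, Cxcr2, Il1b and Mmp9), while those of myelocytes were high in granulocytes too. From myelocytes to granulocytes Ltf differed by -0.28, Lcn2 by -0.09, Ngp by -0.17 and Camp by -0.94, none of which passed, and Mmp8 was higher in granulocytes by 0.95 (adjusted p = 0.00941), under 2-fold. RMA sets the probe values of all arrays to 1 distribution. The 75th percentiles of the deposited values still ran from 6.71 (granulocyte array 2) to 7.03 (LSK array 1) and were lowest in the granulocyte arrays. In sorted bulk samples fewer cells that express a gene and less of its RNA per cell cannot be told apart.

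The mitotic genes fell at the last step of granulocyte formation, and few of them were called at the steps before it. Between myelocytes and granulocytes 52 of 54 members fell and none rose past 2-fold, where 5.96% of all genes tested fell and 2.35% rose. At an unadjusted p under 0.05 the other 2 members, Pttg1 and Cdc25b, were higher, as were 15.5% of all genes. The shares called are 1188 and 469 genes, which became 886 and 635 when each array was centred on its 75th percentile, a scaling that raised this difference by 0.16 for every gene and left 49 of the 52 members called. For those 52 members the 3 granulocyte arrays all lay under the 3 myelocyte arrays, as did 19.8% of all genes. The members' median difference was -2.27 on the log2 scale, against 0.09 for all genes. The 52 differences ran from -3.57 for Bub1 to -1.07 for Cenpa, with a largest adjusted p of 0.00175.

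From LSK to promyelocytes no member was called in limma's test, where 1.61% of all genes rose and 2.75% fell. At an unadjusted p under 0.05, 3 members were higher (Cdca5, Aurkb and Cdca3) and 1 was lower (Cdc25b), shares below the 13% and 12.5% of all genes. The median difference was 0.23, and 49 of 54 members lay within 0.5 of their LSK mean, with standard errors from 0.158 to 0.405. The share of all genes within 0.5 was not counted, here or for myelocytes below. Such closeness to LSK is therefore not shown to be particular to the members. The median was 0.09 without LSK array 3. From promyelocytes to myelocytes 1 member fell, Cenpn, and none rose, where 9.87% of all genes fell and 7.61% rose. The median was -0.31, and 13 members were lower and 1 higher at an unadjusted p under 0.05, against 21.8% and 18.6% of all genes. With no minimum on the fold, 7 members were lower at an adjusted p under 0.05 (Cenpn, Ncapd2, Cdca5, Aurkb, Cenpi, Espl1 and Spc24) and 1 was higher (Cdc25b), where 19.1% and 15.6% of all genes were. Between myelocytes and LSK 46 of 54 members lay within 0.5, and 2 members, Cenpn and Ncapd2, were lower past 2-fold, where 10.8% of all genes were lower and 7.74% higher.

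**Figure D1:**
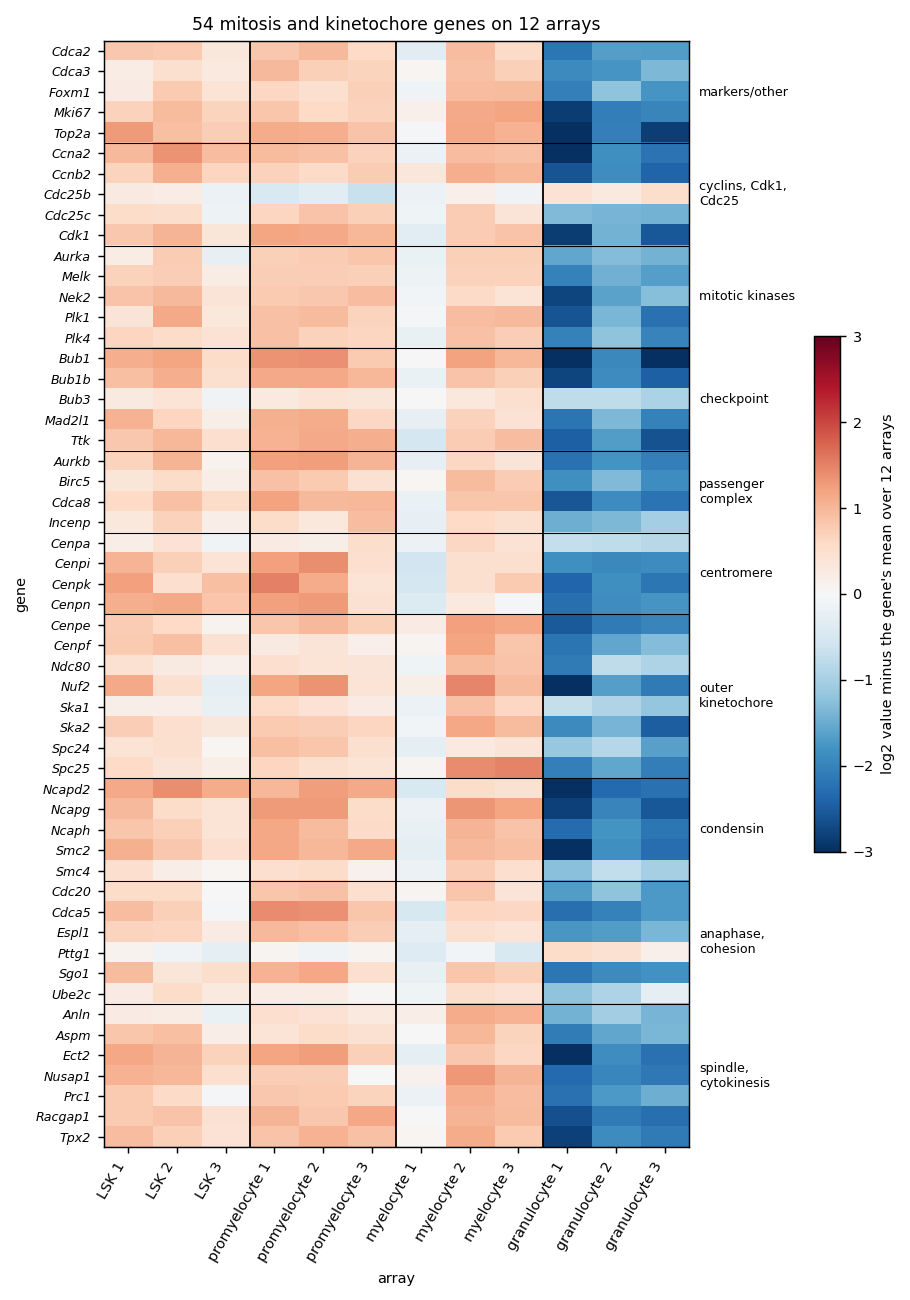
Each row is 1 of 54 mitosis and kinetochore genes, grouped by role, and each column is 1 of 12 arrays, 3 for each stage. Colour gives the log2 value minus the gene's mean over 12 arrays, with colours saturating at -3 and 3. The granulocyte columns are blue in 52 rows, Pttg1 and Cdc25b are the exceptions, and myelocyte array 1 is paler or bluer than the other 2 myelocyte arrays.

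Granulocytes were also compared with the 2 earlier stages. Against promyelocytes 51 members were lower and none higher past 2-fold (16.3% and 10.1% of all genes), with a median of -2.68. Ube2c (-0.96, adjusted p = 0.00166), Cdc25b and Pttg1 did not reach a 2-fold fall. Against LSK 50 members were lower and none higher (16.5% and 9.59% of all genes, or 3293 and 1912, and 2781 and 2440 with the 75th percentile centring), with a median of -2.51, and Cenpa (-0.95), Ska1 (-0.98), Cdc25b and Pttg1 did not reach it. These comparisons share the granulocyte arrays with the last step and add no separate support to it.

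For each gene the last step was set against the step before it, in a test of whether the 2 differences were equal. The difference of the differences was lower in 47 members and higher in 1, Pttg1, where 7.55% of all genes were lower and 5.98% higher, and its median over the members was -1.99. It was largest for Spc25 (-3.37), Nusap1 (-3.31), Mki67 (-3.26) and Ccnb2 (-3.24). It did not pass in Cdca5, Cenpi, Cenpk, Cenpn, Spc24 and Cdc25b. The myelocyte arrays enter the 2 steps with opposite sign, and the count depended on them. It was 23 without myelocyte array 2 and 28 without myelocyte array 3, and between 37 and 50 when any other array was left out.

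**Figure D2:**
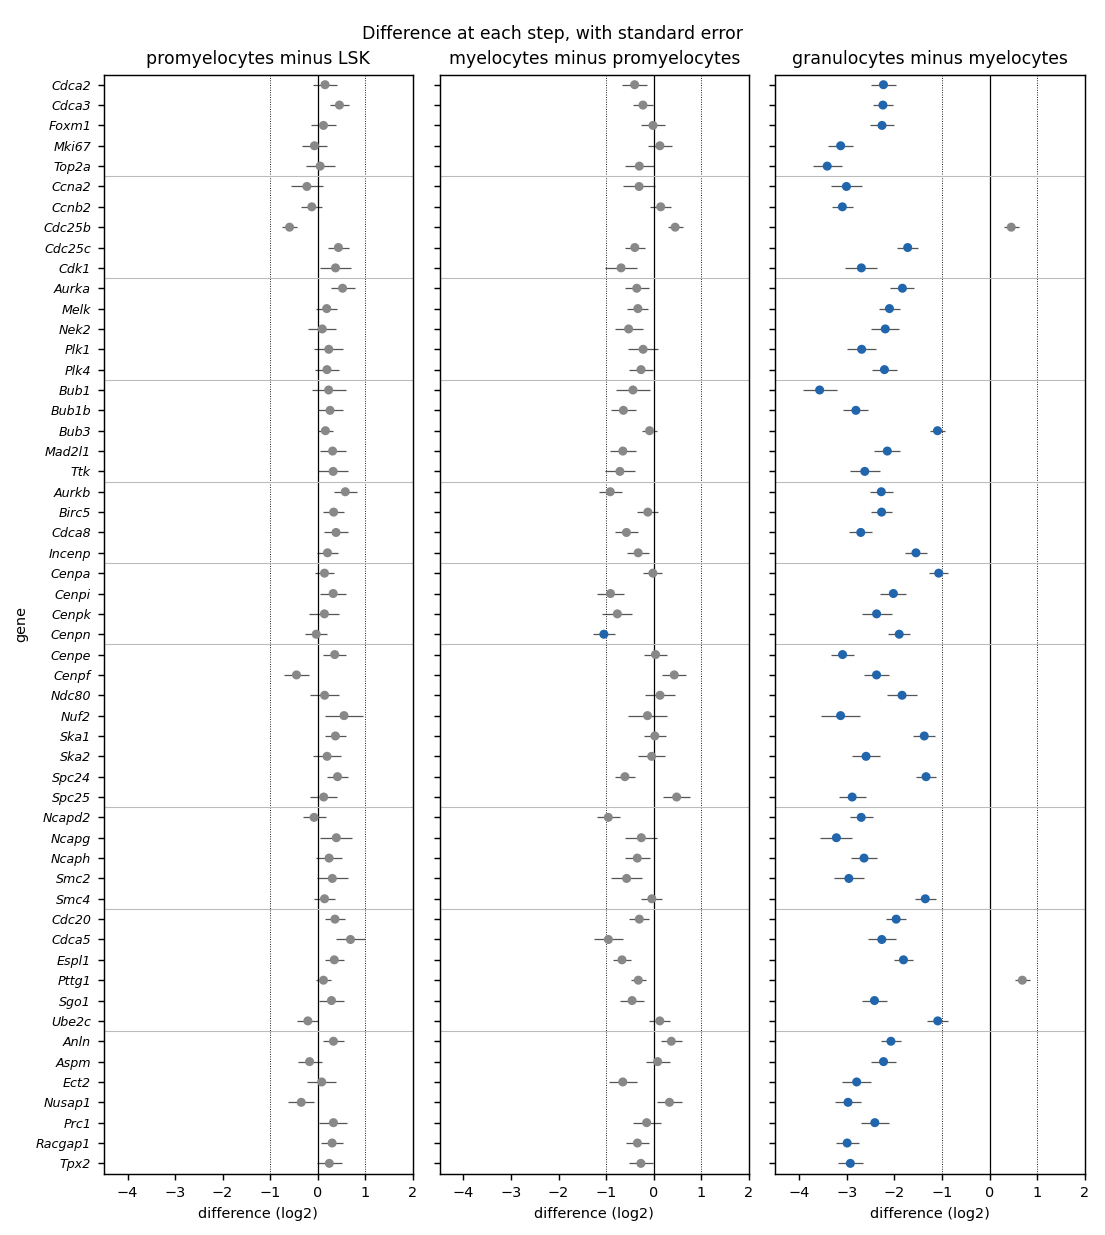
Each dot is the difference in log2 value between neighbouring stages for 1 gene, with its standard error, in 3 panels for the 3 steps. Blue dots passed the test at 2-fold and grey dots did not, and dotted lines mark a difference of 1 either way. Blue dots fill the right panel apart from Pttg1 and Cdc25b, whereas Cenpn is the single blue dot in the other panels.

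Among the cyclins, Cdk1 and its activating phosphatases, 4 of 5 members fell at the last step. Ccnb2, a B-type cyclin, read 9.497, 9.88 and 9.47 in LSK, 9.51, 9.38 and 9.57 in promyelocytes, 9.16, 9.92 and 9.82 in myelocytes and 6.23, 6.97 and 6.43 in granulocytes. The arrays of the first 3 stages lay close together and all granulocyte arrays lay below them. The difference at the last step was -3.09 ± 0.216 (SE, adjusted p = 1.9e-07 in limma), an 8.54-fold fall. Ccna2, the cyclin of S phase and mitotic entry, fell by 3.01 on the log2 scale, and its granulocyte arrays read 5.18, 6.70 and 6.31, with array 1 lowest. Cdk1, the kinase that drives entry into mitosis, read 8.46, 8.67 and 8.01 in LSK, 8.83, 8.78 and 8.64 in promyelocytes, 7.31, 8.39 and 8.49 in myelocytes and 4.80, 6.21 and 5.10 in granulocytes. Its groups did not overlap at the last step, where the difference was -2.69 (a 6.47-fold fall).

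The 2 Cdc25 phosphatases, which remove the inhibitory phosphates from Cdk1, gave opposite signs at the last step. Cdc25c read 6.32, 6.30 and 5.63 in LSK, 6.41, 6.63 and 6.50 in promyelocytes, 5.64, 6.54 and 6.16 in myelocytes and 4.45, 4.39 and 4.35 in granulocytes. All granulocyte arrays were dim, so its fall is given as at least 2.98-fold. Cdc25b read 7.18, 7.13 and 6.74 in LSK, 6.45, 6.59 and 6.24 in promyelocytes, 6.74, 7.07 and 6.81 in myelocytes and 7.35, 7.20 and 7.44 in granulocytes. It was lowest in promyelocytes and highest in granulocytes, the reverse of most members. Its differences were -0.59 (adjusted p = 0.0207), 0.45 (adjusted p = 0.0373) and 0.45 (adjusted p = 0.0529) at the 3 successive steps and 0.91 (adjusted p = 1.6e-04) between promyelocytes and granulocytes, all under 2-fold.

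The 5 mitotic kinases all fell at the last step, with a median of -2.19. Plk1, which acts at centrosomes, kinetochores and the midbody, had a difference of -2.69, from 7.87, 8.81 and 8.86 in myelocytes to 5.31, 6.51 and 5.66 in granulocytes. LSK arrays of Plk1 read 8.28, 9.03 and 8.22 and promyelocyte arrays 8.78, 8.85 and 8.57, so the 3 earlier stages overlapped. Aurka, the centrosomal Aurora kinase, fell least of the group (-1.83), from 7.18, 8.11 and 8.12 to 5.84, 6.10 and 5.97. Its LSK arrays read 7.62, 8.16 and 7.15 and its promyelocyte arrays 8.10, 8.16 and 8.22. The differences of Plk4 (centriole duplication), Nek2 (centrosome separation) and Melk were -2.21, -2.19 and -2.10.

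All 5 spindle checkpoint genes fell, and the group held both the largest and one of the smallest falls. Bub1, a checkpoint kinase, read 8.39, 8.48 and 7.85 in LSK, 8.65, 8.68 and 8.08 in promyelocytes, 7.28, 8.51 and 8.30 in myelocytes and 3.95, 5.36 and 4.06 in granulocytes. Granulocyte arrays 1 and 3 were dim and array 2 was not. The fall was 3.57 ± 0.356 (SE), and the myelocyte mean was 11.2-fold above the dim level. Bub3, which carries Bub1 and BubR1 to kinetochores, read 9.09, 9.24 and 8.71 in LSK, 9.10, 9.23 and 9.19 in promyelocytes, 8.83, 9.12 and 9.30 in myelocytes and 8.05, 8.06 and 7.86 in granulocytes. Its fall was 1.09 ± 0.162 (adjusted p = 0.000133), 2.14-fold, and all 3 granulocyte arrays stayed far above the dim level. Without myelocyte array 3 it was -0.99 and no longer reached 2-fold. Bub1b (BubR1), Ttk (the kinase Mps1) and Mad2l1 (Mad2) fell too (-2.81, -2.62 and -2.15). Ttk read 7.20, 7.37 and 6.87 in LSK, 7.43, 7.51 and 7.46 in promyelocytes, 5.84, 7.13 and 7.30 in myelocytes and 3.93, 4.70 and 3.77 in granulocytes. Its myelocyte array 1 stood far below the other 2. Ttk was dim in granulocytes by its mean, and its myelocyte mean was 4.65-fold above the dim level.

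**Figure D3:**
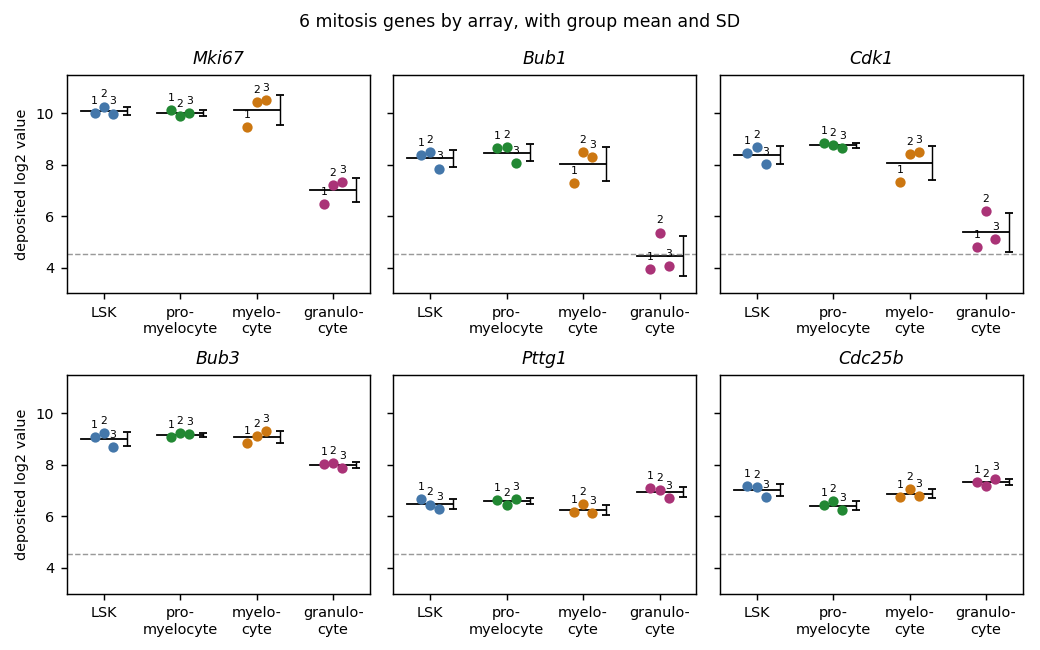
Deposited log2 values of Mki67, Bub1, Cdk1, Bub3, Pttg1 and Cdc25b by stage, with numbered points for the 3 arrays of a group, a horizontal line for the mean and a bar for the SD. The dashed line is the dim level of 4.54. From myelocytes to granulocytes Mki67 (-3.13), Bub1 (-3.57) and Cdk1 (-2.69) lie further down than Bub3 (-1.09), and Pttg1 and Cdc25b lie highest in granulocytes.

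Of the 6 anaphase and cohesion genes 5 fell. Sgo1, the shugoshin that protects centromeric cohesion, read 7.36, 6.78 and 6.95 in LSK, 7.46, 7.57 and 6.92 in promyelocytes, 6.19, 7.25 and 7.14 in myelocytes and 4.23, 4.50 and 4.59 in granulocytes. It was dim in granulocytes by its mean and fell by 2.42, and its myelocyte mean was 4.995-fold above the dim level. Cdca5 (sororin), Cdc20 (an activator of the anaphase-promoting complex) and Espl1 (separase) fell too, with differences of -2.27, -1.96 and -1.81. Ube2c, the ubiquitin-conjugating enzyme of that complex, read 7.26, 7.57 and 7.30 in LSK, 7.24, 7.23 and 7.03 in promyelocytes, 6.89, 7.55 and 7.44 in myelocytes and 5.79, 6.09 and 6.73 in granulocytes. Granulocyte array 3 came close to myelocyte array 1 without overlap, and the fall of 1.09 ± 0.220 (SE, adjusted p = 0.00175) was -0.96 without myelocyte array 2 and -0.89 without granulocyte array 1, under 2-fold in both.

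Pttg1, the securin that inhibits separase, went the other way. It read 6.67, 6.46 and 6.28 in LSK, 6.65, 6.45 and 6.66 in promyelocytes, 6.19, 6.48 and 6.12 in myelocytes and 7.11, 7.03 and 6.71 in granulocytes. Every granulocyte array lay above every array of the other stages. The difference at the last step was 0.69 ± 0.158 (SE, adjusted p = 0.00469), a 1.61-fold difference under the 2-fold limit, and higher without overlap like 24.4% of all genes. The difference between its last 2 steps was 1.01 (adjusted p = 0.018), and it went under 1 when any of 6 arrays was left out, to between 0.87 and 0.98. These were promyelocyte arrays 1 and 3 (both 0.98), myelocyte arrays 1 (0.94) and 3 (0.87) and granulocyte arrays 1 (0.93) and 2 (0.97).

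The chromosomal passenger complex, which corrects kinetochore attachments and later governs cytokinesis, fell in all 4 measured subunits. Cdca8 (borealin) read 7.82, 8.08 and 7.76 in LSK, 8.43, 8.18 and 8.20 in promyelocytes, 7.01, 8.04 and 8.04 in myelocytes and 4.64, 5.33 and 4.99 in granulocytes. It fell the most of the 4 (-2.71), and myelocyte array 1 was the lowest of the earlier arrays. Incenp, the scaffold subunit, fell by 1.55, from 7.82, 8.67 and 8.54 in myelocytes to 6.61, 6.73 and 7.05 in granulocytes, after 8.38, 8.75 and 8.26 in LSK and 8.61, 8.39 and 9.00 in promyelocytes. Aurkb, its kinase, and Birc5 (survivin) fell too (-2.28 and -2.27). Aurkb was also lower in myelocytes than in promyelocytes by a difference of -0.91 (adjusted p = 0.00613), under 2-fold.

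The 4 centromere genes fell at the last step, and 1 of them had already fallen before. Cenpn, a subunit of the constitutive centromere network that binds the CENP-A nucleosome, read 7.91, 7.95 and 7.65 in LSK, 8.05, 8.09 and 7.27 in promyelocytes, 6.40, 7.10 and 6.77 in myelocytes and 4.56, 4.96 and 5.05 in granulocytes. All myelocyte arrays lay below all promyelocyte arrays, and it fell by 1.05 ± 0.227 (SE, adjusted p = 0.00154) at that step and fell again at the next (-1.90). The earlier difference was -0.87 without myelocyte array 1, -0.92 without promyelocyte array 1 and -0.90 without promyelocyte array 2, under 2-fold in each case. Cenpk and Cenpi, of the same network, fell to dim values in all 3 granulocyte arrays, by at least 2.35-fold and 2.63-fold. Cenpk read 6.76, 6.02 and 6.42 in LSK, 7.03, 6.63 and 5.94 in promyelocytes, 5.00, 6.00 and 6.31 in myelocytes and 3.15, 3.68 and 3.35 in granulocytes. Cenpa, the histone variant that marks the centromere, read 8.94, 9.17 and 8.63 in LSK, 8.99, 8.91 and 9.26 in promyelocytes, 8.56, 9.36 and 9.18 in myelocytes and 8.02, 7.97 and 7.91 in granulocytes. Its granulocyte arrays lay close together and below all others, and its fall of 1.07 ± 0.197 (SE), the smallest of the 52, was -0.91 without myelocyte array 2 and -0.996 without myelocyte array 3, when it was no longer called.

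All 8 outer kinetochore genes fell, with a median of -2.49. Nuf2, a subunit of the Ndc80 complex that binds microtubules, read 8.82, 8.15 and 7.38 in LSK, 8.87, 9.04 and 8.09 in promyelocytes, 7.85, 9.13 and 8.62 in myelocytes and 4.62, 6.02 and 5.57 in granulocytes. It fell by 3.13 ± 0.405 (SE), the least precise of the members. Cenpe, a kinesin that carries chromosomes to the metaphase plate, fell by 3.09, and its myelocyte arrays 2 and 3 (8.07 and 8.00) were above all LSK and promyelocyte arrays. Spc25, another Ndc80 subunit, read 7.57, 7.37 and 7.18 in LSK, 7.63, 7.46 and 7.40 in promyelocytes, 7.06, 8.39 and 8.48 in myelocytes and 4.93, 5.42 and 4.91 in granulocytes. Myelocyte arrays 2 and 3 of Spc25 were the 2 highest of all 12 arrays, array 1 lay below every LSK and promyelocyte array, and its step from promyelocytes, 0.48, did not pass (adjusted p = 0.239). Without myelocyte array 1 that step was 0.94 (adjusted p = 0.00095), still under 2-fold. Spc25 then fell by 2.89.

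Spc24, the partner of Spc25 in the same complex, fell least of the outer kinetochore genes. It read 7.20, 7.27 and 6.85 in LSK, 7.69, 7.61 and 7.27 in promyelocytes, 6.51, 7.08 and 7.17 in myelocytes and 5.66, 5.93 and 5.16 in granulocytes. Its last 2 differences were -0.60 (adjusted p = 0.0403, under 2-fold) and -1.34 ± 0.216 (SE), and they did not differ detectably (-0.73, adjusted p = 0.245). Ska2, Cenpf and Ndc80 fell too (-2.60, -2.38 and -1.84), as did Ska1, a microtubule-binding kinetochore protein dim in granulocytes by its mean. The myelocyte mean of Ska1 was 2.28-fold above the dim level.

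Condensin I, which compacts mitotic chromosomes, fell in all 5 subunits, with a median of -2.70. Ncapg read 8.13, 7.71 and 7.55 in LSK, 8.43, 8.43 and 7.69 in promyelocytes, 6.97, 8.48 and 8.33 in myelocytes and 4.34, 5.17 and 4.61 in granulocytes. It had the widest spread of the members among myelocyte arrays, 1.51, and fell by 3.22 (9.31-fold). Smc4, an ATPase subunit that condensin I and II share, fell least (-1.35), from 9.11, 10.00 and 9.77 in myelocytes to 8.01, 8.53 and 8.28 in granulocytes, after 9.77, 9.48 and 9.33 in LSK and 9.78, 9.82 and 9.40 in promyelocytes. Smc2, the other ATPase, fell by 2.96. Ncapd2 read 9.23, 9.48 and 9.21 in LSK, 9.10, 9.35 and 9.24 in promyelocytes, 7.64, 8.64 and 8.55 in myelocytes and 5.11, 5.76 and 5.86 in granulocytes. All myelocyte arrays lay between the earlier arrays and the granulocyte arrays, without overlap. Myelocytes differed from LSK by -1.03 (adjusted p = 0.00274), which was -0.72 without myelocyte array 1 and -0.95 without LSK array 2, and it fell by 2.70 at the last step.

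The 7 spindle and cytokinesis genes all fell, with a median of -2.79. Racgap1, a subunit of centralspindlin, read 8.92, 8.98 and 8.58 in LSK, 9.16, 8.93 and 9.29 in promyelocytes, 8.11, 9.15 and 9.08 in myelocytes and 5.49, 6.00 and 5.87 in granulocytes. It fell the most of the 7 (-2.99). Nusap1 (-2.97), Tpx2 (-2.93), which promotes microtubule assembly at the spindle, and Ect2 (-2.79), which acts in cytokinesis, fell nearly as much, and Prc1 (-2.41), a crosslinker of the central spindle, and Aspm (-2.23), a spindle pole protein, followed. Anln (anillin, a scaffold of the contractile ring) read 7.92, 7.88 and 7.47 in LSK, 8.18, 8.10 and 7.97 in promyelocytes, 7.87, 8.79 and 8.70 in myelocytes and 6.24, 6.62 and 6.28 in granulocytes. Its myelocyte arrays 2 and 3 were above all earlier arrays while array 1 was among them. Anln was higher in myelocytes than in LSK by 0.70 (adjusted p = 0.0175), under 2-fold, and by 1.06, past 2-fold, without myelocyte array 1, and then fell by 2.07.

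Mki67, Top2a and 3 further genes all fell. Mki67, which encodes the Ki-67 antigen used to score cycling cells, read 10.00, 10.26 and 9.99 in LSK, 10.13, 9.91 and 9.99 in promyelocytes, 9.47, 10.45 and 10.49 in myelocytes and 6.47, 7.22 and 7.33 in granulocytes. The LSK and promyelocyte arrays overlapped, and the granulocyte arrays lay far below every other array, a difference of -3.13 ± 0.257 (SE, an 8.75-fold fall). Top2a, topoisomerase II alpha, fell by 3.41 (10.6-fold), the largest fold among the members that stayed above the dim level, from 9.16, 10.36 and 10.24 in myelocytes to 5.98, 7.16 and 6.39 in granulocytes. LSK arrays of Top2a read 10.48, 10.11 and 9.94 and promyelocyte arrays 10.31, 10.30 and 10.06. Foxm1, a transcription factor for late cell cycle genes, and Cdca3 and Cdca2 fell too (-2.26, -2.24 and -2.23). Cdca2, which fell least of the 5, read 7.80, 7.76 and 7.31 in LSK, 7.80, 7.95 and 7.58 in promyelocytes, 6.66, 7.91 and 7.54 in myelocytes and 4.80, 5.33 and 5.29 in granulocytes, and its granulocyte arrays lay below all others.

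The size of the fall varied among the members. By their granulocyte means, 45 of the 52 stayed above the dim level, with folds from 2.10 to 10.6, and 7 did not (Bub1, Ttk, Cdc25c, Sgo1, Cenpi, Cenpk and Ska1). Among the 45, Birc5 was dim on 2 granulocyte arrays. Nek2, Ska2, Cenpe, Cenpf, Ncapg, Smc2, Nusap1, Ect2 and Aspm were dim on 1 each, so their folds also rest partly on dim values. No member was dim by its mean at any earlier stage. In 38 of 54 members the highest stage mean was that of promyelocytes, in 7 that of LSK, in 7 that of myelocytes and in 2 that of granulocytes. The 3 earlier stages differed little, however, and the share of all genes highest at each stage was not counted. Without myelocyte array 1 the members' median from promyelocytes to myelocytes was 0.02 in place of -0.31. The granulocyte arrays still differed among themselves, with array 1 lowest for 41 members (75.9%, all genes 31.6%) and array 2 highest for 34 (63%, all genes 31.7%).

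Markers of other cell types were read beside the last step. Of 6 basophil and mast cell markers (Mcpt8, Ms4a2, Cpa3, Prss34, Fcer1a and Hdc) 5 fell from myelocytes to granulocytes, with a median of -4.88, and of 8 monocyte markers 5 fell and 1 rose (Csf1r). Summed on the linear scale, the basophil markers ran from 276 to 670.4 in LSK, 2318 to 6196 in promyelocytes, 4924 to 16670 in myelocytes and 3001 to 3551 in granulocytes. The monocyte markers ran from 659.5 to 1812, from 4413 to 7706, from 1103 to 2939 and from 960.5 to 1077 in the same order. In granulocytes Ms4a2, Cpa3 and Fcer1a had dim means, and Hdc gave most of the basophil sum. Of the erythroid (7), B cell (7) and eosinophil (5) markers none was called at that step, and of 7 T and NK cell markers 2 rose and 1 fell. At the earlier steps the eosinophil markers (Epx, Prg2, Prg3, Siglecf and Ear6) had the largest median differences of the other cell types' lists, and all 5 rose from LSK to promyelocytes (median 3.61) and 3 fell from promyelocytes to myelocytes (median -3.03). Their sum was 4527, 449 and 6030 on promyelocyte arrays 1 to 3, 174 to 221 in LSK and 321 to 394 in myelocytes. At the same 2 steps 5 and then 3 of the basophil markers rose, and of the monocyte markers 7 rose at the first and 4 fell at the second. The part of these cells in the mitotic values was not tested.

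Myelocyte array 1 stood apart from the other 2 for these genes. It was the lowest of the 3 for 53 of 54 members (98.1%), where it was lowest for 34.5% of all genes. The members lay a median of 0.96 under the mean of the other 2 arrays, from 1.43 to 0.11 under it, where all genes had a median difference of 0.00. The exception was Pttg1, lowest on array 3. Array 2 was the highest of the 3 for 43 members (79.6%, all genes 26.8%) and array 3 for 11. The members' median SD within myelocytes was 0.56, against 0.26 in LSK, 0.14 in promyelocytes and 0.33 in granulocytes, and against 0.14 in myelocytes for the 13899 genes that were not dim in every group. Ncapg, Ttk and Spc25 spread most, with ranges of 1.51, 1.46 and 1.42, and Cdc25b, Pttg1 and Bub3 least, with 0.33, 0.36 and 0.47.

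All 6 basophil and mast cell markers were highest of the myelocyte arrays on array 1. Mcpt8 read 12.1, 11.0 and 9.70 on myelocyte arrays 1 to 3, Fcer1a 10.1, 8.07 and 6.95 and Ms4a2 9.56, 8.09 and 6.17. Cpa3 (10.1, 8.96 and 7.17), Prss34 (12.7, 11.9 and 10.6) and Hdc (11.3, 11.1 and 11.1) ran from a steep to a slight difference. The summed level of the list was 16670, 9042 and 4924 on the 3 arrays, that of the monocyte list 2939, 1662 and 1103, and that of the mitotic members 9991, 19645 and 18110. The myelocyte markers Ltf, Camp, Lcn2, Ngp and Mmp8 summed to 39124, 37083 and 35788. On promyelocyte arrays 1 to 3 the basophil list summed to 6196, 2318 and 2709 and the mitotic members to 19389, 19094 and 16981. Array 1 was thus highest for both there. The part of the other cells in the low mitotic values of myelocyte array 1 was not tested.

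**Figure D4:**
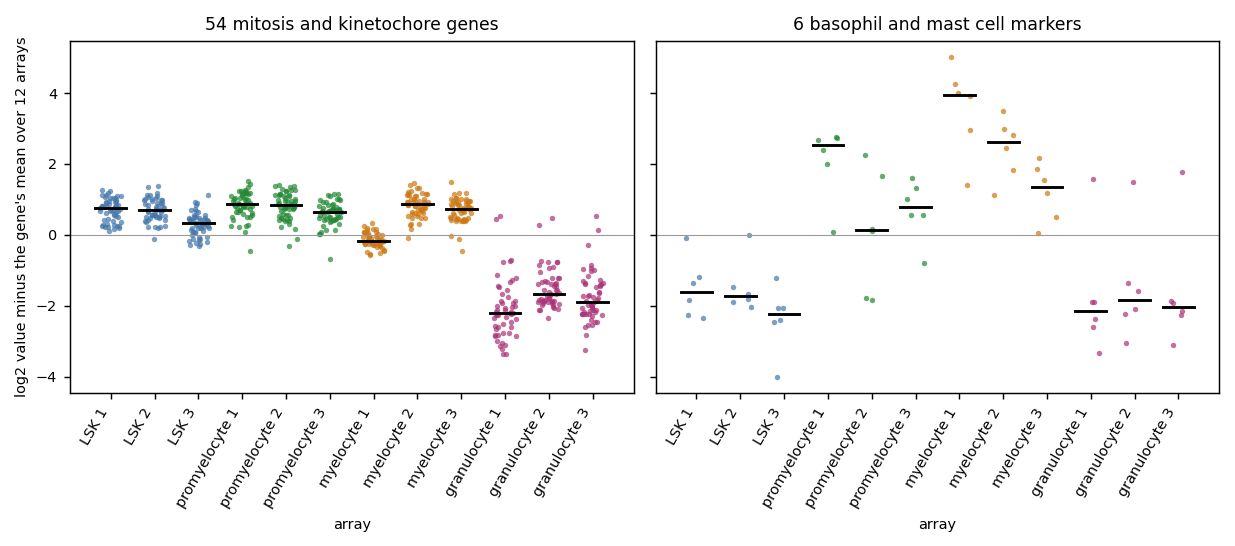
Each point is the log2 value minus the gene's mean over 12 arrays, for 54 mitosis and kinetochore genes (left) and 6 basophil and mast cell markers (right), with a black line at the median of each array. The left medians are 0.86 and 0.74 on myelocyte arrays 2 and 3 and -0.17 on myelocyte array 1, which has the highest median in the right panel (3.95).

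Leaving myelocyte array 1 out moved the earlier steps and not the last call. Without it the members' median from promyelocytes to myelocytes was 0.02 in place of -0.31, no member fell at that step, and the median between myelocytes and LSK was 0.19 in place of -0.09. Without myelocyte array 2 these medians were -0.50 and -0.27, and without array 3 -0.42 and -0.16. At the last step 52 members fell without it as with it, and the median was -2.62 in place of -2.27. LSK array 3 was similarly the lowest of its group for 49 members (90.7%, all genes 33.9%), by a median of 0.40 under the other 2, and without it the median between myelocytes and LSK was -0.20. Promyelocyte array 3 was lowest for 37 (68.5%, all genes 37.9%).

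Further genes of the same machinery, taken from a list of 84 measured genes, were counted in the same way. At the last step 44 of 84 fell and none rose past 2-fold, where 5.96% of all genes tested fell and 2.35% rose. Their median was -1.01, against 0.09 for all genes. All 5 kinases, phosphatases and inhibitors of mitotic entry fell, namely Wee1 (-2.60), Cdc25a (-2.15), Bora (-2.04), Mastl (-1.95) and Pkmyt1 (-1.19). Of 24 other kinetochore and centromere genes 14 fell, led by Ska3 (-3.03), Cenph (-2.82), Knl1 (-2.70) and Kntc1 (-2.40). Of 17 other spindle and cytokinesis genes 12 fell, led by Tacc3 (-2.61), Cep55 (-2.58) and Ccnf (-2.58), and of the 3 condensin II subunits 2 fell, Ncapd3 (-2.17) and Ncapg2 (-1.80).

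The anaphase-promoting complex, cohesin and the DREAM and B-MYB complexes, which also act outside mitosis, were counted next. The shares of all genes at this step were again 5.96% lower and 2.35% higher. Of 14 genes of the anaphase-promoting complex and its regulators 4 fell (median -0.41), led by its inhibitor Fbxo5 (-3.28), with the subunits Anapc5 (-1.63), Cdc23 (-1.28) and Anapc1 (-1.07). Of 12 cohesin genes 5 fell (median -0.91), led by the acetyltransferase Esco2 (-2.82) and the shugoshin Sgo2a (-2.55), with Pds5b (-1.69), Smc1a (-1.02) and Stag1 (-1.01). Stag2, the other cohesin subunit of the Stag1 kind, differed by 0.11 at that step and was higher in granulocytes than in LSK by 1.13 (adjusted p = 5.1e-04). Of 9 DREAM and B-MYB genes 2 fell, Lin9 (-2.15) and Rbl1 (-1.95). Haus8 (0.82) and Lin54 (0.64) were the highest of the 84 and were under 2-fold, and both were higher in granulocytes than in LSK past 2-fold, by 1.09 and 1.14.

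Some of these further genes fell at the step before. From promyelocytes to myelocytes 13 of 84 fell, against 1 of 54 members and 9.87% of all genes, and none rose. They were Wee1 (-2.01), Bora (-1.07), the gamma-tubulin Tubg1 (-1.03) and the augmin subunits Haus1 (-1.94), Haus7 (-1.58), Haus4 (-1.23), Haus6 (-1.23) and Haus5 (-1.13), together with Cenpm (-1.69), Mybl2 (-1.68), Cenph (-1.33), Zwilch (-1.13) and Anapc5 (-1.05). Wee1 is the kinase that puts the inhibitory phosphate on Cdk1, Mybl2 is B-MYB, and augmin builds microtubule branches in the spindle. Myelocyte array 1 was the lowest of the 3 for 71 of the 84 (84.5%, all genes 34.5%), with a median difference of -0.48 from the other 2. The count of 13 was not repeated without that array. The difference between the last 2 steps was lower in 23 of the 84 and higher in 1, Haus8, where 7.55% of all genes were lower and 5.98% higher.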

How the data were processed

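RNA of 12 sorted samples, 3 in each of 4 groups, was measured on 1-colour Affymetrix Mouse Gene 1.0 ST arrays. The authors deposited log2 expression values that came from the justRMA function of Bioconductor, of unstated version. It background-corrects, quantile-normalizes and summarizes probes, so that all arrays share 1 distribution of probe values before these are summarized. Of 34760 rows, 21640 had 1 gene symbol, 1321 several and 11799 none, and rows with 1 symbol were reduced to the row with the highest mean per gene (19937 genes). Group means were fitted over the 12 arrays with limma 3.58.1 in R 4.3.3 (lmFit, eBayes), and p-values were adjusted by Benjamini-Hochberg over all genes. A call needed an adjusted p under 0.05 and a 2-fold difference. The median within-group SD was 0.21 with 8 residual degrees of freedom, and the 3 arrays per group limit the precision. No 2 arrays held identical values. The fit was tested on simulated data.

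The genes, their role groups, the further mitotic genes and the cell type markers were chosen with earlier results of these data known. Named with all array values were the extremes of each role group, members whose call differed from their group, members higher at a step and those with the widest myelocyte spread. Where a granulocyte mean was at or under 4.54, the fold given is that of the myelocyte mean against 4.54. It is a lower bound for Cdc25c, Cenpi and Cenpk, whose 3 granulocyte arrays were all dim. For Bub1, Ttk, Sgo1 and Ska1 only 2 granulocyte arrays were dim, and that fold is not a bound. Same-numbered promyelocyte and myelocyte arrays deviated together (r = 0.18, 0.12 and 0.20 over all genes), which comes from the data and not from the labels. Alternatives covered array centring, quantile normalization, a filter on dim genes, the row per gene, thresholds, the variance model, the groups fitted, a replicate block and leaving out each array. Promoter sequences came from RefSeq, GRCm38.p6.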

Additional observations from a re-analysis of the deposited data

How the results depend on the processing

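No called difference of a member changed sign under any alternative. Differences that were not called did so in 139 of 8694 comparisons with an alternative. Among them were 20 between myelocytes and LSK and 16 from promyelocytes to myelocytes without myelocyte array 1. Many of the 8694 could not change sign. Changes of threshold, variance model, groups fitted, replicate block or dim filter left the difference itself unchanged. So did leaving out an array of a group outside the comparison, and the choice of row touched only Top2a. A called difference also starts at least 2-fold away from no change. Of the 8694, 8497 kept their side of the threshold, 145 lost the call and 52 gained one, and the causes of the changes were not tested. The count of members that fell from myelocytes to granulocytes ran from 49 (75th percentile centring and quantile normalization) to 52, and the members lost were Bub3 (-0.93 and -0.98), Ube2c (-0.93 and -0.74) and Cenpa (-0.91 and -0.96), in that order of settings, each to under 2-fold. The count of members that fell from promyelocytes to myelocytes, 1 in the report, was 3 with median centring, 0 with 75th percentile centring, 4 with quantile normalization, 7 with no fold minimum and from 0 to 5 when each array was left out in turn. Between myelocytes and LSK the 2 members lower became 1 with 75th percentile centring and from 0 to 2 over the arrays left out, and the 0 members higher became 1 without a fold minimum and from 0 to 1 over the arrays left out. Between promyelocytes and granulocytes 1 member, Cdc25b, was higher with 75th percentile centring, with quantile normalization and with no fold minimum (1.13, 1.26 and 0.91). For the difference between the last 2 steps, the 1 member higher, Pttg1, became 0 with quantile normalization and from 0 to 1 over the arrays left out, and the 47 lower ran from 23 to 50.

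Without a fold minimum the genes called higher and lower were 1155 and 1439 from LSK to promyelocytes, 3102 and 3798 from promyelocytes to myelocytes, 1609 and 2764 from myelocytes to granulocytes, 3189 and 4061 between LSK and myelocytes, and 5300 and 5038 between LSK and granulocytes, and 5114 were higher in granulocytes than in promyelocytes. The same setting called 1 member lower from LSK to promyelocytes (Cdc25b) and 1 higher from promyelocytes to myelocytes (Cdc25b), from myelocytes to granulocytes (Pttg1) and from LSK to granulocytes (Pttg1). The replicate number as a block changed 1 call, the difference between steps of Cenpa (-1.05, adjusted p = 0.05), and lowered that count from 47 to 46. Over all pairs of groups 7 of 18 same-numbered pairs correlated over 0.1, from -0.25 to 0.25, and the labels name no shared animal or day. Signal over background limited the 7 members that were dim in granulocytes by their mean. The falls of the 3 that were dim in all 3 granulocyte arrays are given as lower bounds. Background also limited the members that lay above the dim level by their mean but had a dim granulocyte array.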

Other observations

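Outside the lists, the 10 genes whose profile over the 12 arrays was most like the mean centred profile of the members were Kif20b, Kif15, Kif4, Dbf4, Shcbp1, Stil, Kif11, Kif22, Cip2a and Spag5, with Pearson r from 0.991 to 0.998 as a description. Kif20b, Kif15, Kif4, Kif11 and Kif22 are kinesins of the spindle or chromosomes, and Dbf4 is the activator of the replication kinase Cdc7. The profile is set mostly by the 3 granulocyte arrays against the rest, and 35 members were among the 100 genes most like it. The members enter the profile themselves, so their likeness to it is partly built in. Melk was the most similar member (0.998), and Pttg1 (-0.66) and Cdc25b (-0.64) ran opposite to it.

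Of 50 windows around the start sites of the members the CHR letters stood in 68.0%, and of 81 windows of the further mitotic genes in 34.6%. CCAAT stood in 78.0% and 50.6%. The Cdc25b window held both (TTCGAA at position 7). The part of these letters in the change of any member was not tested.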
